A study of Mus musculus with 5 samples.

Results

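The subject is a set of 7 genes whose products natural killer (NK) cells secrete: the chemokine genes Ccl3, Ccl4, Ccl5 and Xcl1, and the cytokine genes Ifng, Csf2 and Osm. They were chosen by name from the deposited gene table, and all 7 of the 7 named genes were among its 13004 genes and among the 11190 that passed a minimum of 1 RPKM in at least 2 samples. RNA came from NK cells of the mouse spleen, sorted as live cells negative for CD3 and positive for NK1.1 and DX5. The control group held 3 libraries (replicates 1, 2 and 3) of the genotype Mycf/f, in which both Myc alleles carry loxP sites and no Cre is named. The MycKO group held 2 libraries (replicates 5 and 6) of the genotype Mycdelta/delta/Ncr1Cre, in which Cre driven by Ncr1, an NK receptor gene, deletes Myc from the NK lineage. All mice were C57BL/6 and 8 weeks old, and no label ties a library to a mouse of its own. The p-values therefore measure the spread between these libraries, which may be technical. Effects of the Cre allele itself and of the Myc deletion cannot be told apart here.

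NK cells act in part by what they release. Interferon gamma, encoded by Ifng, activates macrophages and antigen presentation, and resting NK cells hold its mRNA before any stimulus. CCL3, CCL4 and CCL5 attract monocytes, T cells and NK cells. XCL1 attracts the cross-presenting dendritic cells that carry its receptor XCR1. Csf2 encodes GM-CSF, a growth and activation factor for myeloid cells, and Osm encodes oncostatin M, a cytokine related to LIF that signals through gp130. Many mRNAs of this kind are held at low levels by proteins that bind AU-rich elements in the 3′ UTR and speed up decay.

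The 3′ UTRs differed widely in the pentamer ATTTA, the core of such elements. Windows of 30 bases with the most pentamers are shown for 4 members to make this difference visible. They are written 5′ to 3′ in the letters of the GENCODE vM21 transcripts, with the pentamers in capitals.
Csf2: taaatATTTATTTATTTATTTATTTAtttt
Ifng: cctATTTAttaatATTTAaaactATTTAta
Ccl3: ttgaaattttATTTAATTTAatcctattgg
Osm: ttttatATTTAtaaggcctATTTAtaatgt

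The Csf2 3′ UTR held 9 pentamers in 317 bases, 5 of them overlapping in the window above, a density of 28.4 per kb. That density exceeded those of 99.9% of the 12007 listed genes with an annotated 3′ UTR. Ifng held 6 pentamers in 631 bases, Ccl3 5 in 409 bases and Osm 6 in 1017 bases. Ccl4 held 2 pentamers in 302 bases and Xcl1 held 1 in 141 bases. The Ccl5 3′ UTR, of 199 bases, held none, as did those of 32.7% of the listed genes. The median listed gene held 1 pentamer in its 3′ UTR, at a median density of 1.26 per kb. A match is only a stretch of letters, and decay was not measured here.

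The RefSeq table gives a promoter window for 4 members, Xcl1, Ifng, Csf2 and Ccl3. The 250 bases before the start are shown for Xcl1 and Csf2, the pair whose MycKO values lay above all controls, so that their sequence can be read beside the values (build GRCm38.p6, both on the minus strand and written 5′ to 3′). Capitals mark matches on either strand to 5 motifs: TGANTCA (AP-1), GGAAA (the core of NFAT sites), GGGAA (part of kappa B sites), GGTGTGA (bound by T-box factors such as T-bet) and CACGTG (the E-box bound by MYC and MAX). The motifs GGAAA and GGGAA overlap where a sequence reads GGGAAA.
Xcl1: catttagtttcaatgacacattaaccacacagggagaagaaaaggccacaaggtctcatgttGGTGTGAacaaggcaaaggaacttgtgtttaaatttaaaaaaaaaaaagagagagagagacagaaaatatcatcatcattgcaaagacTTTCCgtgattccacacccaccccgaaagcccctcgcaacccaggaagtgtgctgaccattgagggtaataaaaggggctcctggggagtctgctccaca
Csf2: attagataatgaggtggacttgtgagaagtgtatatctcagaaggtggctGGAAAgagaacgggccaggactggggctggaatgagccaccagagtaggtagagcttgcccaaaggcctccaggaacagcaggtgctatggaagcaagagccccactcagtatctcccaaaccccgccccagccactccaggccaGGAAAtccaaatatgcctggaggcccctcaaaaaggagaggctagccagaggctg

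The Xcl1 window lies at chr1:164935523-164935772 and the Csf2 window at chr11:54249900-54250149. In the Xcl1 window the T-box motif lies 188 to 182 bases before the start, on the strand of the gene, and the motif occurs in 3.01% of the 10050 windows of listed genes. A GGAAA match on the opposite strand lies 100 to 96 bases before it. The Csf2 window holds GGAAA at 200 and at 55 bases before the RefSeq start, which lies 232 bases upstream of the start that GENCODE gives. GGAAA occurs in all 4 member windows and in 54.6% of all windows. The motif GGGAA occurs in 1 of the 4, Ccl3, and in 58.3% of all windows. The E-box and the AP-1 motif occur in none of the 4, against 8.29% and 4.42% of all windows.

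Values are RPKM, reads scaled to transcript length and library size, so levels can be compared between genes. Reads in the listed genes came to 14290690 to 17610826 in controls, 5451728 in MycKO 5 and 13337084 in MycKO 6, so MycKO 5 carried the most counting error. Myc, the targeted gene, was at 12.98, 22.97 and 21.2 RPKM in controls 1, 2 and 3, against 12.5 and 8.70 RPKM in MycKO 5 and 6. Its log2 fold change (MycKO minus control) was -0.77, with an adjusted p of 0.297 by the limma test described below. The authors' deposited table gives -0.91 with an adjusted p of 0.0782. These values may include exons outside the deleted part, which was not tested. How far they measure the deletion cannot be told here. All 14 markers of NK cells on a fixed list were detected, led by Gzma at 4699 RPKM or more in every library. For most other spleen cells, the summed markers stood higher in both MycKO libraries, although not every marker did. Summed macrophage and monocyte markers were at 378 to 565 RPKM in controls and 1798 to 1893 RPKM in MycKO (16 of 16 detected, 13 higher by the test described below), and neutrophil markers at 30.6 to 91.1 and 250 to 619 RPKM (12 of 14 listed). Lyz2, the most abundant macrophage and monocyte marker, overlapped between the groups (55.1 to 220 and 210 to 734 RPKM). T cell markers were at 111 to 123 and 213 to 279 RPKM (11 of 14 listed) and B and plasma cell markers at 92.4 to 149 and 371 to 707 RPKM (11 of 14 listed). The most abundant T cell marker, Lat, overlapped (49.6 to 81.3 and 67.4 to 76.0 RPKM). Jchain, the most abundant B and plasma cell marker, was at 34.8 to 80.2 and 232 to 580 RPKM. Dendritic cell markers were at 484 to 681 and 1031 to 1654 RPKM (14 of 14 listed), type 1 innate lymphoid cell markers at 37.5 to 41 and 97.6 to 154 RPKM (9 of 9 listed), and red cell and platelet markers at 7.74 to 12.6 and 103 to 221 RPKM (9 of 14 listed). The most abundant dendritic cell marker was Cd74 (114 to 190 and 339 to 511 RPKM). Il7r led the type 1 innate lymphoid cell list (9.09 to 13.7 and 27.4 to 57.9 RPKM). By the test, 3 of 9 tested T cell markers and 1 of 11 B and plasma cell markers were higher, against 1.24% of all genes. So were 2 of 11 neutrophil, 2 of 14 dendritic cell, 1 of 9 type 1 innate lymphoid cell and 3 of 9 red cell and platelet markers. The sum of the NK cell markers went the other way, at 15766 to 18261 RPKM in controls, against 13231 and 15145 RPKM in MycKO 5 and 6. Gzma, the most abundant of them, was at 6584 to 7251 RPKM in controls and 4699 to 5620 RPKM in MycKO. By the test, 1 of the 14 NK cell markers was higher and none lower, against 1.24% and 0.0983% of all genes. The median log2 fold change of the 14 was -0.21. The basophil and mast cell list (10 of 12 listed) had a median log2 fold change of 1.35 over 8 tested genes, with 1 higher and 1 lower by the test. Its sum, at 217 to 237 RPKM in controls and 168 to 187 RPKM in MycKO, was mostly Cma1 (198 to 219 and 76.0 to 125 RPKM), which NK cells also make. No listed marker was at 0 in all 5 libraries. In such bulk samples, fewer cells of a type and less RNA per cell cannot be told apart.

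**Figure D1:**
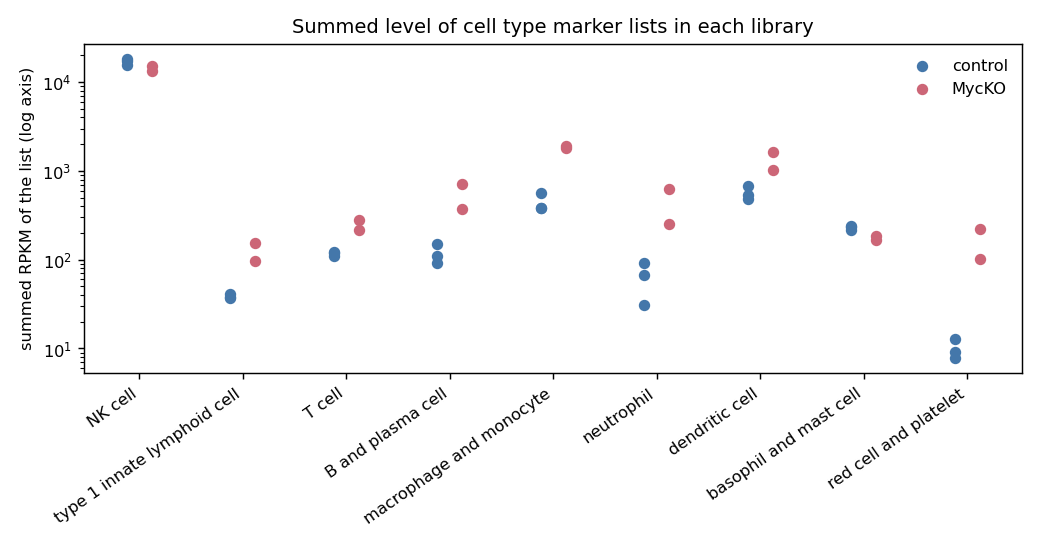
Summed RPKM (log axis) of 9 lists of cell type markers, with 1 point per library, in controls (blue) and MycKO (red). The sums for macrophages, neutrophils, T cells, B cells, dendritic cells, red cells and type 1 innate lymphoid cells lay higher in both MycKO libraries than in every control, while the sum of NK cell markers lay lower. The basophil and mast cell sum, mostly Cma1, also lay lower, although the median log2 fold change of that list was 1.35.

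The 7 transcripts spanned a wide range of levels, with Ccl5 far above the others. In controls, Ccl5 was at 4914 ± 513 RPKM (SD, n = 3), ahead of Xcl1 at 262 ± 61.5, Ccl3 at 147 ± 42.2, Ccl4 at 129 ± 15.0, Ifng at 56.6 ± 9.0, Osm at 11.03 ± 1.82 and Csf2 at 3.82 ± 1.12 RPKM. Ccl5 ranked 3 among all listed genes in every control. Ccl3 and Ccl4 were not separated beyond their spread, since either could be the higher within a library. Xcl1 exceeded Ccl3 in each of the 5 libraries, although Xcl1 in control 2 (191 RPKM) was below Ccl3 in control 1 (194 RPKM). Osm exceeded Csf2 in all controls, where Csf2 reached 26.5%, 41% and 36.2% of the Osm level in controls 1, 2 and 3. In MycKO the 2 overlapped, with Csf2 at 109% of Osm in MycKO 5 and 64.0% in MycKO 6. The plot of RPKM by library shows these levels.

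**Figure D2:**
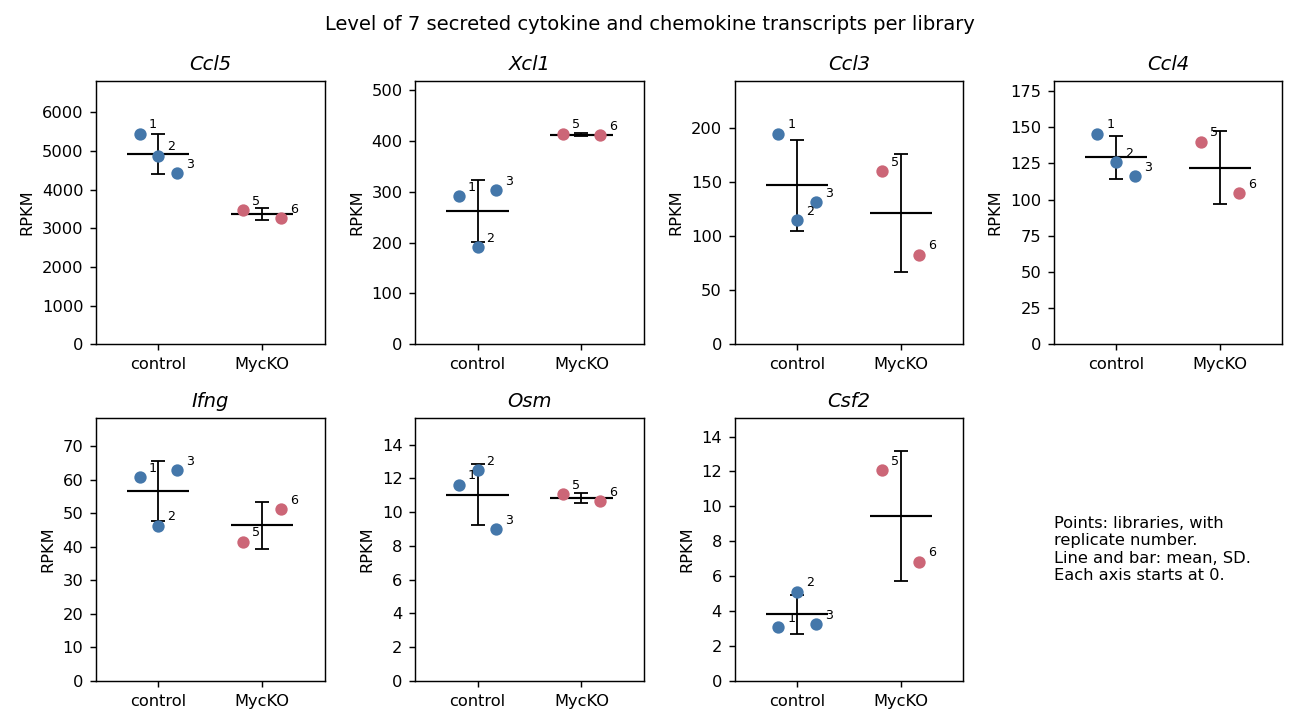
RPKM of the 7 transcripts in each library (numbered by replicate), controls in blue and MycKO in red, with the group mean (line) and SD (bar), n = 3 and n = 2; each axis starts at 0 and has its own range. Ccl5 lay lower and Xcl1 and Csf2 lay higher in both MycKO libraries than in every control, and the groups of the other 4 overlapped.

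The comparison asked how deletion of Myc bears on the transcripts of these secreted products. Ccl5 was lower, and Xcl1 and Csf2 were higher, in both MycKO libraries than in every control. Ifng, Ccl3, Ccl4 and Osm overlapped between the groups. None of the 7 passed limma's moderated test at an adjusted p of 0.05 over all genes tested, where 1.34% of the genes did, and 3 had an unadjusted p under 0.05, against 13.2% of all genes (2 higher, against 9.83%, and 1 lower, against 3.35%). The same 3 were those without overlap, against 29.1% of all genes, 2 with MycKO above (18.8% of all genes) and 1 below (10.4%). The authors' deposited test called 1 member, Ccl5, where 3.4% of its 13004 genes were called (0.5% lower), and limma-voom on the reads called the same gene, where 2.09% of genes were called (0.241% lower). The median log2 fold change of the 7 was -0.09, against 0.05 over all genes tested. Fold changes are MycKO minus control on the log2(RPKM + 1) scale, which understates the change of low genes, unless another source is named.

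Among the chemokines, Ccl5 (Entrez 20304; mm10 chromosome 11, 83525778 to 83530518, minus strand, protein-coding, 3 exons) stood at 5445, 4878 and 4420 RPKM in controls 1, 2 and 3, against 3472 and 3260 RPKM in MycKO 5 and 6. Both MycKO libraries thus lay below the lowest control, and they differed from each other by less than the controls did. The MycKO mean of 3366 ± 150 RPKM (SD, n = 2) was 68.5% of the control mean. The log2 fold change was -0.54 (SE 0.14, 95% interval -0.88 to -0.21) with a limma adjusted p of 0.151. The call depended on the test: limma-voom gave -0.55 with an adjusted p of 0.0126, and the authors' deposited table gives -0.61 with an adjusted p of 0.00321. Ccl5 was the most deeply counted member, with 10061 reads in MycKO 5 and 45631 in control 2, and took 0.289%, 0.259% and 0.235% of the reads in controls 1, 2 and 3, against 0.185% and 0.173% in MycKO 5 and 6, and the exact 95% binomial intervals of these shares (0.286% to 0.292%, 0.257% to 0.261%, 0.232% to 0.237%, 0.181% to 0.188% and 0.171% to 0.175%) cover counting error only. Its rank among all genes was 6 in MycKO 5 and 7 in MycKO 6. The summed NK cell markers were also lower in both MycKO libraries, with a median log2 fold change of -0.21 over 14 genes. Limma called 1 of these genes higher and none lower, where it called 1.24% of all genes higher and 0.0983% lower. The part of these markers in the lower Ccl5 was not tested.

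Xcl1 (Entrez 16963; chromosome 1, 164931644 to 164935527, minus strand, protein-coding, 3 exons), whose promoter letters are shown above, went the other way. Its level was 292, 191 and 303 RPKM in controls 1, 2 and 3, against 414 and 411 RPKM in MycKO 5 and 6. The MycKO pair was nearly equal and above the highest control, while control 2 stood well under the other controls. The means were 262 ± 61.5 RPKM (SD, n = 3) and 413 ± 2.42 RPKM (SD, n = 2), a log2 fold change of 0.68 (SE 0.20, 95% interval 0.22 to 1.14) with a limma adjusted p of 0.178. Reads numbered 1691 to 2205 in controls, 1135 in MycKO 5 and 2753 in MycKO 6. The authors' deposited table gives 0.59 with an adjusted p of 0.0669. Limma-voom gave 0.70 with an adjusted p of 0.101. Without control 2 the fold change was 0.47 with a limma adjusted p of 0.0642. It was 0.78 without control 1 and 0.80 without control 3, with limma adjusted p of 0.260 and 0.219. Without MycKO 5 it was 0.68, and without MycKO 6 it was 0.69. Set against Ccl5 within the same library, a ratio that no scaling can alter, Xcl1 was at 5.36%, 3.92% and 6.85% of Ccl5 in controls 1, 2 and 3, against 11.9% and 12.6% in MycKO 5 and 6. This ratio was chosen after the values were seen and has no test. Activated T cells and type 1 innate lymphoid cells also make XCL1. Summed T cell markers were at 111 to 123 RPKM in controls and 213 to 279 RPKM in MycKO, those of type 1 innate lymphoid cells at 37.5 to 41 and 97.6 to 154 RPKM, and their part in the higher Xcl1 was not tested.

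Ccl3 (Entrez 20302; chromosome 11, 83647844 to 83649355, minus strand) and Ccl4 (Entrez 20303; chromosome 11, 83662584 to 83664683, plus strand), which encode MIP-1 alpha and MIP-1 beta, have 3 exons each and lie 13.2 kb apart, pointing away from each other. Ccl3 stood at 194, 114 and 131 RPKM in controls 1, 2 and 3, against 160 and 82.5 RPKM in MycKO 5 and 6. The MycKO libraries were on either side of control 2 and control 3, so the groups overlapped. The log2 fold change was -0.31 (SE 0.31, 95% interval -1.03 to 0.40) with a limma adjusted p of 0.778, and it turned to 0.16 without MycKO 6. Ccl4 was at 146, 126 and 116 RPKM in controls, against 140 and 104 RPKM in MycKO. Its log2 fold change of -0.09 (SE 0.16, 95% interval -0.46 to 0.28) had a limma adjusted p of 0.904 and turned to 0.12 without MycKO 6 and to 0.00021 without control 1. The interval leaves room for a difference of either sign in both genes.

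The spread between libraries was wide for Ccl3 and less so for Ccl4. The SD of Ccl3 over the 3 controls was 0.39 on the log2 scale, larger than in 95.8% of the 882 tested genes whose mean log2 level lay within 1 of it, and that of Ccl4 was 0.16, larger than in 62.2% of 925 such genes. The gap between MycKO 5 and MycKO 6 was 0.94 for Ccl3 and 0.42 for Ccl4, larger than in 98.4% and 90.4% of like genes, with MycKO 5 the higher in both. The ratio of Ccl3 to Ccl4 RPKM was 1.34, 0.910 and 1.13 in controls 1, 2 and 3, against 1.14 and 0.792 in MycKO 5 and 6. On the log2(RPKM + 1) scale the ratio was 0.22 lower in MycKO, which did not differ beyond the spread in a two-sided exact permutation test over libraries (p = 0.5; 3 against 2 allows no p under 0.1). RefSeq's Ccl4 model (chromosome 11, 83648624 to 83664683) reaches 755 bases into the Ccl3 gene on the opposite strand. Whether the counting used strand is not stated by the labels or the table, so reads in such a shared stretch could not be told apart. The transcript lengths behind the deposited values were 790 bases for Ccl3 and 660 bases for Ccl4.

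Among the cytokines, Ifng (Entrez 15978; chromosome 10, 118441046 to 118445892, plus strand, protein-coding, 4 exons) stood at 60.7, 46.3 and 62.8 RPKM in controls 1, 2 and 3, against 41.5 and 51.3 RPKM in MycKO 5 and 6. MycKO 6 exceeded control 2, so the groups overlapped, although the 2 highest values were controls. The log2 fold change was -0.28 (SE 0.17, 95% interval -0.68 to 0.12) with a limma adjusted p of 0.595, from 828 to 1106 reads in every library but MycKO 5, which had 274. It was -0.41 without control 2 and -0.13 without MycKO 5, where the adjusted p was 0.250 and 0.930. The sign was the same under every alternative tried.

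Csf2 (Entrez 12981; chromosome 11, 54247271 to 54249667, minus strand, protein-coding, 4 exons), which carries the densest AU-rich stretch shown above, was the lowest member in controls. It stood at 3.09, 5.11 and 3.25 RPKM in controls 1, 2 and 3, against 12.1 and 6.82 RPKM in MycKO 5 and 6. Both MycKO libraries lay above the highest control. The values rest on few reads, 48, 93 and 48 in controls, against 68 and 94 in MycKO. The exact 95% Poisson interval of MycKO 6 (5.51 to 8.34 RPKM) overlapped that of control 2 (4.13 to 6.26 RPKM), and that of MycKO 5 ran from 9.37 to 15.3 RPKM. The means were 3.82 ± 1.12 RPKM (SD, n = 3) and 9.44 ± 3.71 RPKM (SD, n = 2), a log2 fold change of 1.09 (SE 0.33, 95% interval 0.32 to 1.87) with a limma adjusted p of 0.202. Without MycKO 5 the fold change was 0.72, with an adjusted p of 0.774, and without MycKO 6 it was 1.46. The authors' deposited table gives 1.24 with an adjusted p of 0.672. Csf2 is also made by activated T cells, other innate lymphoid cells and myeloid cells, whose summed markers were higher in the same 2 libraries (213 to 279 RPKM for T cells, 97.6 to 154 RPKM for type 1 innate lymphoid cells and 1798 to 1893 RPKM for macrophages and monocytes). Their part in the higher Csf2 was not tested.

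Osm (Entrez 18413; chromosome 11, 4236420 to 4241026, plus strand, protein-coding, 3 exons) differed least. It stood at 11.6, 12.5 and 8.99 RPKM in controls 1, 2 and 3, against 11.1 and 10.6 RPKM in MycKO 5 and 6, inside the range of the controls. The log2 fold change of -0.01 (SE 0.21, 95% interval -0.50 to 0.48) had a limma adjusted p of 0.994, from 115 to 419 reads per library. Its sign turned without control 1, control 2 or MycKO 6, with values of 0.03, 0.08 and 0.01. Neutrophils and macrophages also make oncostatin M. Their summed markers stood higher in MycKO (250 to 619 and 1798 to 1893 RPKM), and their part in the Osm values was not tested.

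**Figure D3:**
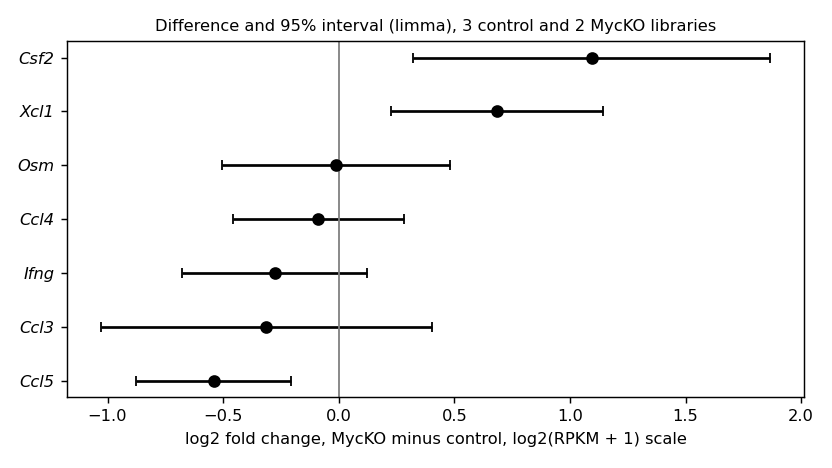
Log2 fold change of each of the 7 transcripts (MycKO minus control, log2(RPKM + 1) scale) with its 95% interval from limma, not adjusted for the number of genes tested, over 3 control and 2 MycKO libraries. The intervals of Csf2 (0.32 to 1.87) and Xcl1 (0.22 to 1.14) lay above 0 and that of Ccl5 (-0.88 to -0.21) below it, and the other 4 spanned 0.

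As a sum, the 7 transcripts came to 6152, 5373 and 5045 RPKM in controls 1, 2 and 3, against 4251 and 3926 RPKM in MycKO 5 and 6. Ccl5 made up 88.5%, 90.8% and 87.6% of the sum in controls, against 81.7% and 83.0% in MycKO. Without Ccl5 the sum was 707, 495 and 625 RPKM in controls, against 779 and 666 RPKM in MycKO, with overlap. The lower total in MycKO was thus carried by Ccl5. Over the 5 libraries, the closest pair of members was Ccl4 and Osm, whose centred log2 profiles differed by a root mean square of 0.17, and the farthest was Csf2 and Ccl5, at 0.86, among 21 pairs. These are descriptions of 5 libraries.

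By the same measure among 10557 tested genes, the 3 profiles most like each member were named. Nearest to Ifng were Pde12 (0.02), Arrb2 (0.03) and Hsf1 (0.04), and nearest to Ccl4 were Cbfb (0.03), Mfsd14a (0.04) and Nacc2 (0.04). Coasy (0.05), Prpsap1 (0.06) and Car15 (0.06) were nearest to Ccl5. Nearest to Osm were Cox5a (0.02), Suz12 (0.03) and Rab1b (0.03). Xcl1 was nearest to Atp6v1g2 (0.05), Npl (0.06) and Mrpl17 (0.06), of which the first pair reached at most 1.32 RPKM. Csf2 was nearest to Minpp1 (0.10), Slfn5 (0.11) and Fgd4 (0.11), and Ccl3 to Map10 (0.07), Smap1 (0.12) and Gmds (0.12). Within 0.1 there were 285 genes for Osm, 121 for Ccl4, 104 for Ifng, 25 for Ccl5, 18 for Xcl1, 1 for Ccl3 and none for Csf2. No likeness was tested.

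None of the tested chromosomal neighbours passed limma. Ccl5, Ccl3 and Ccl4 lie in the CC chemokine cluster of chromosome 11, where Ccl3 starts 117.3 kb beyond Ccl5. Between them lie Ccl9, at 4.86, 7.21 and 2.60 RPKM in controls, against 20.8 and 4.21 RPKM in MycKO, and Ccl6, at 10.9, 26.1 and 8.62 RPKM in controls, against 69.9 and 24.7 RPKM in MycKO. Both encode chemokines made mainly by myeloid cells, both were highest in MycKO 5, and neither passed limma (adjusted p of 0.621 and 0.258). The authors' deposited test called Ccl6 (log2 fold change 1.57, adjusted p of 0.0290) but not Ccl9 (adjusted p of 0.304). On the other side of Ccl5, 3.6 kb away, Heatr9 was at 30.5 to 46.1 RPKM in controls, against 23.1 and 32.0 RPKM in MycKO (adjusted p = 0.404). Beyond Ccl4, Wfdc17 had a log2 fold change of 2.24 (adjusted p = 0.210). Osm lies 16.5 kb from Lif, a cytokine gene of the same family, which was listed at 0 in controls 2 and 3 and MycKO 6 and at 0.122 and 0.971 RPKM in control 1 and MycKO 5. Its other neighbour, Tbc1d10a, had a log2 fold change of 0.19. The nearest listed neighbours of Xcl1 (Atp1b1 at -0.45 and Tbx19 under 1 RPKM), Ifng (Mdm1 at 0.00 and Dyrk2 at -0.15) and Csf2 (Pdlim4 at 0.55 and Fnip1 at 0.50) lay 178.3 kb or farther away, and none that was tested passed limma.

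The medians of the other secreted factors lay above that of all genes, and 1 of these genes passed the test. Of 33 other chemokine genes, 13 were listed and 10 tested, 8 of them with a positive fold change, and the median was 1.15 against 0.05 over all genes. That median rests largely on low values, since Ccl24, Ccl25, Ccl27a, Cxcl9, Cxcl16, Pf4 and Ppbp reached at most 5.49 RPKM in any library. By limma none passed, and 5 had an unadjusted p below 0.05, all higher, against 9.83% of all genes. No gene was called by limma-voom, where 2.09% of all genes were. The authors' deposited test called 1, Ccl6, against 3.4% of all genes. The smallest p belonged to Cxcl10, an interferon-induced chemokine (3.32, 3.97 and 2.61 RPKM in controls 1, 2 and 3, against 12.8 and 9.54 RPKM in MycKO 5 and 6; adjusted p = 0.0532), and to Ccl24, an eosinophil attractant (log2 fold change 1.82, adjusted p = 0.112). Of 44 other cytokine genes, 23 were listed and 18 tested, with a median of 0.90. By limma 1 passed, where 1.24% of all genes were called higher, and 7 had an unadjusted p below 0.05, all higher, against 9.83% of all genes. In limma-voom 2 were called, against 2.09% of all genes. The authors' deposited table calls 3, against 3.4% of all genes: Il18, Il1b and Ltb (adjusted p of 0.00586, 0.00376 and 0.000625). The gene that passed limma was Il18, a cytokine of macrophages that acts on NK cells. It was at 7.82, 8.85 and 3.15 RPKM in controls, against 29.6 and 31.5 RPKM in MycKO, a log2 fold change of 2.15 (SE 0.37) with a limma adjusted p of 0.0431. That call was lost in 7 of 13 alternatives, with adjusted p-values of 0.0512 to 0.222, among them those without control 1, MycKO 5 or MycKO 6. Macrophage and monocyte markers, at 378 to 565 RPKM in controls and 1798 to 1893 RPKM in MycKO as a sum, stood higher in the same libraries as Il18, and their part in it was not tested.

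**Figure D4:**
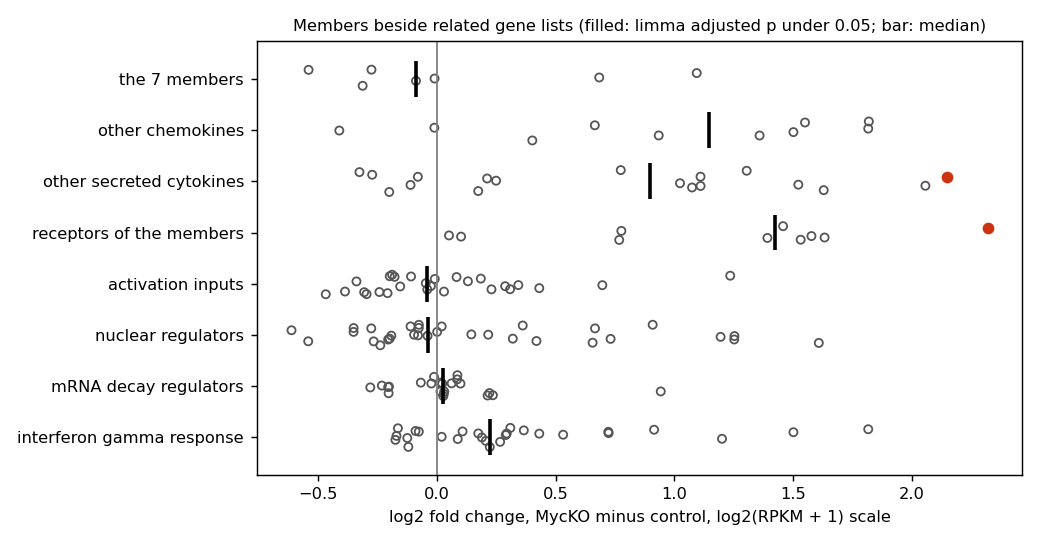
Log2 fold change (MycKO minus control, log2(RPKM + 1) scale) of the 7 members and of the tested genes of 7 related lists, with 1 point per gene, filled where limma's adjusted p was under 0.05 and a bar at the median. The filled points are Il18 and Ifngr2, and the medians of the other chemokines (1.15), other cytokines (0.90) and receptors (1.42) lie to the right of that of the members (-0.09).

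Of 13 genes for receptors of the members' products, 11 were listed and 10 tested, all 10 with a positive fold change and a median of 1.42. By limma 1 was called higher, against 1.24% of all genes, and 7 had an unadjusted p below 0.05, all higher, against 9.83%. In limma-voom 2 were called, against 2.09% of all genes. The authors' deposited table calls 4, against 3.4% of all genes: Ifngr2, Ccr3, Csf2rb and Xcr1. Ifngr2, the signalling chain of the interferon gamma receptor, rose from 2.05, 1.76 and 0.946 RPKM in controls 1, 2 and 3 to 13.8 and 9.85 RPKM in MycKO 5 and 6, a log2 fold change of 2.32 (SE 0.33) with a limma adjusted p of 0.0263. It lost the call without control 1, control 3, MycKO 5 or MycKO 6 (adjusted p of 0.0663 to 0.251). Ifngr1, the ligand-binding chain of the same receptor, was chosen after its values were seen and overlapped between the groups, at 387, 323 and 306 RPKM in controls, against 331 and 368 RPKM in MycKO (log2 fold change 0.05, 95% interval -0.25 to 0.35). Xcr1, the receptor of XCL1 and a marker of cross-presenting dendritic cells, was at 0.597, 0.625 and 0.141 RPKM in controls, against 5.27 and 1.75 RPKM in MycKO and was chosen likewise (limma adjusted p = 0.201, 0.0396 in the authors' deposited table). Dendritic cell markers as a sum, a list that holds Xcr1 itself, were at 484 to 681 RPKM in controls and 1031 to 1654 RPKM in MycKO. Macrophage and monocyte markers were at 378 to 565 and 1798 to 1893 RPKM. The part of either cell type in these receptor values was not tested.

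None of the tested genes on the lists of activating inputs and nuclear regulators passed limma. Of 27 genes of activating inputs (IL-12, IL-18 and IL-2 family receptors, JAK, STAT and NF-kappa B members, NFAT and proximal kinases), all 27 were tested, with a median of -0.04, 2 higher and 4 lower at an unadjusted p under 0.05 (9.83% and 3.35% of all genes), and none past limma. Limma-voom called 1, against 2.09% of all genes. The authors' deposited test called 2, Il21r and Zap70, against 3.4% of all genes. The smallest p belonged to the IL-21 receptor gene Il21r (8.51, 7.90 and 9.79 RPKM in controls, against 16.9 and 28.2 RPKM in MycKO, limma adjusted p = 0.0695) and to the kinase gene Zap70 (61.5, 70.4 and 60.3 RPKM in controls, against 48.1 and 43.8 RPKM in MycKO, limma adjusted p = 0.151). Their adjusted p in the authors' deposited table was 0.00118 and 0.0280. Of 31 tested nuclear regulators, of 32 on the list, none passed limma, 6 were higher and 5 lower at an unadjusted p under 0.05 (9.83% and 3.35% of all genes), and the median was -0.04. Limma-voom called 3 of them, against 2.09% of all genes. The authors' deposited test called 4, Tbx21, Irf4, Prdm1 and Ikzf2, against 3.4% of all genes. Tbx21, which encodes T-bet, an activator of Ifng, was at 219, 190 and 206 RPKM in controls 1, 2 and 3, against 133 and 147 RPKM in MycKO 5 and 6. Its log2 fold change of -0.54 (SE 0.11) had a limma adjusted p of 0.0695. Its groups did not overlap, with MycKO below, as in 10.4% of all genes. The authors' deposited table gives -0.61 with an adjusted p of 0.00272. Irf4, a factor of activated lymphocytes and plasma cells, was at 0.799, 1.37 and 1.43 RPKM in controls, against 7.03 and 4.49 RPKM in MycKO (limma adjusted p = 0.0806, 0.00118 in the authors' deposited table).

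The 22 regulators of mRNA decay, which include the AU-rich element binding proteins of the Zfp36 family, had a median of 0.02. By limma none passed, and 1 had an unadjusted p below 0.05, against 13.2% of all genes. Neither limma-voom nor the authors' deposited test called any, where 2.09% and 3.4% of all genes were called. The smallest p belonged to Zc3h12d, a relative of the RNase Regnase-1 (log2 fold change 0.94, adjusted p = 0.254), and to Cnot3, a subunit of the CCR4-NOT deadenylase (-0.28, adjusted p = 0.469). Of 28 genes induced by interferon gamma, 27 were tested, with a median of 0.22. By limma none passed, and 6 had an unadjusted p below 0.05, all higher, against 9.83% of all genes. No gene was called by limma-voom, where 2.09% of all genes were, and 1 by the authors' deposited test, where 3.4% were. Cxcl10, described above, and Cxcl9 (1.19, 0.00 and 1.40 RPKM in controls, against 5.49 and 4.77 RPKM in MycKO; adjusted p = 0.127), both also chemokines, had the smallest p. Both are known products of macrophages, whose markers were at 1798 to 1893 RPKM in MycKO and 378 to 565 RPKM in controls, and their part in these values was not tested.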

How the data were processed

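Sorted splenic NK cells were profiled by strand-specific single-read RNA sequencing, per the labels' protocols. The submitters' processing notes name TopHat, edgeR and the build mm10, without versions or roles; the annotation, the counter and whether it used strand are not stated there. The deposited table holds, per the file headers, RPKM per sample and the authors' mean signal, ratio (fold change), log2 ratio, p-value and adjusted p-value, from a test that is not named; its lowest mean signal was 2.1. No column per sample was left unmapped. The members and gene lists were chosen with earlier results of these data known.

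RPKM were analysed as log2(RPKM + 1) for genes reaching 1 RPKM in 2 samples or more, with limma 3.58.1 (R 4.3.3, variance trend, two-sided, Benjamini-Hochberg over 11190 genes, threshold 0.05). The procedure was also run on simulated data, in which only well-counted genes were changed. That run does not bear on genes with as few reads as Csf2. The deposited group means allow reads to be worked out from RPKM; 100% of values came out whole within 0.0001 of a read, and limma-voom was run on them. No 2 libraries agreed within counting noise (chi-square per degree of freedom at least 17.8). Coordinates and 3′ UTRs (principal protein-coding transcript) are from GENCODE vM21 (mm10), promoter windows from RefSeq (GRCm38.p6).

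Genes named are the members, Myc, those of each list that passed (else the 2 with the smallest p), the 3 nearest profiles (without predicted genes and receptor segments), and the nearest listed neighbours. Alternatives were scaling by median of ratios or by upper quartile, a smaller pseudocount (0.1), no filter, a minimum of 5 RPKM, no variance trend, limma-voom, the authors' test and leaving out each library. A withheld item is not reported here.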

Additional observations from a re-analysis of the deposited data

How the results depend on the processing

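The number of genes changed was 150. It was 80 with a pseudocount of 0.1, 234 in limma-voom and 442 in the authors' deposited test, and 34 to 217 when 1 library was left out. Of the members, 1 was called in limma-voom and 1 in the authors' deposited test, Ccl5 in both (-0.55 and -0.61), and 0 in every other alternative, leaving out each library included. Ccl5, Xcl1, Csf2 and Ifng kept their sign in all 13 alternatives. Ccl3 turned to 0.16 without MycKO 6, Ccl4 to 0.00021 without control 1 and 0.12 without MycKO 6, Osm to 0.031, 0.077 and 0.014 without control 1, control 2 and MycKO 6, and the difference in the Ccl3 to Ccl4 ratio to 0.036 without MycKO 6. Leaving out 1 library gave -0.79 to 0.16 for Ccl3, -0.30 to 0.12 for Ccl4, -0.14 to 0.077 for Osm and -0.49 to 0.036 for the ratio.

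Of the other cytokines, 0 were called under median-of-ratios scaling, with a pseudocount of 0.1, with no filter and without a variance trend, 2 in limma-voom, 3 in the authors' deposited test and 0 to 2 without 1 library. Of the receptors, 2 were called in limma-voom, 4 in the authors' deposited test and 0 to 1 without 1 library. In limma-voom and the authors' deposited test, 1 and 2 activating inputs and 3 and 4 nuclear regulators were called. The authors' deposited test called 1 other chemokine and 1 interferon gamma response gene, and 0 to 1 of these and of the nuclear regulators were called without 1 library. The cause was not tested. Scaling moved the median of all genes by at most 0.0485. Csf2 had the fewest reads of the members, 48 to 94 per library. Where 1 library was left out of MycKO, the remaining one was assumed to vary like the controls. No paired analysis was possible because the groups share no replicate number.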
